A study of Mus musculus with 48 samples.

Results

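The nuclear respiratory chain subunits described here are 80 genes of 32544 in the count table. They were chosen by name: symbols of complex I (Ndufa, Ndufb, Ndufc, Ndufs and Ndufv followed by a number), complex II (Sdha to Sdhd), complex III (Uqcr genes), complex IV (Cox4i to Cox8 genes) and complex V (Atp5 genes). Of 82 matching rows, the 80 with a mean of at least 1 CPM (a library's count of a gene, scaled by its total) over the usable libraries were kept. They comprised 36 genes of complex I, 4 of complex II, 8 of complex III, 15 of complex IV and 17 of complex V. The rows left out were Cox7b2, at a mean of 0.00749 CPM, and Cox8c, at 0.00459 CPM. The name patterns also took in Atp5s, which codes for coupling factor B, and Atp5sl, a complex I assembly protein, while Ndufa4 is now counted as a subunit of complex IV.

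The respiratory chain of the mitochondrial inner membrane passes electrons from NADH, through complex I, or from succinate, through complex II, to complexes III and IV and on to oxygen, and the proton gradient this builds drives ATP synthase, complex V. Most subunits are made from nuclear genes and the remainder from the mitochondrial genome. Some subunits of complex IV (cytochrome c oxidase) come as paired isoforms from separate genes: Cox6a2, Cox7a1 and Cox8b are the forms of skeletal and heart muscle, while Cox6a1, Cox7a2 and Cox8a are made in most tissues.

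Polyadenylated RNA of the tibial metaphysis, the flared end of the shin bone below the growth plate, was sequenced from male mice aged 19 weeks. Each mouse wore a cast on the left hindlimb for 3 weeks and kept the right hindlimb free as its control. Of the 8 strains, 5 are classical inbred lines (C57BL/6J, 129S1/SvImJ, NZO/HlLtJ, A/J and NOD/ShiLtJ) and 3 are wild-derived (WSB/EiJ, PWK/PhJ and CAST/EiJ), with 3 immobilized limbs per strain and 3 control limbs per strain, except that A/J kept 1 control limb. The data answer 2 questions for these genes: whether the subunits changed in the cast limb, and whether the strains differed.

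The 46 usable libraries held 5253408 to 14744056 counts each, in 24 immobilized and 22 control limbs. The A/J control libraries 2 and 5, with 2335 and 50 counts, were left out. The paired comparison therefore used 22 mice and rested on 1 mouse for A/J, and since casts were on the left side only, a side effect and a cast effect cannot be told apart. The osteoblast markers, 10 genes such as Col1a1 and Bglap, summed to 8018 to 269105 CPM in immobilized limbs and to 4686 to 106810 CPM in control limbs. The only A/J control limb was the highest control limb. Markers of red blood cell precursors (erythroid), such as Hba-a1, summed to 5806 to 165900 CPM in immobilized limbs and to 556 to 102714 CPM in control limbs. A NZO/HlLtJ control limb was the lowest. Markers of skeletal muscle differed widely between libraries: the 20 markers summed to 40.04 to 28246 CPM (median 1094) in immobilized limbs and to 98.2 to 83722.5 CPM (median 1718) in control limbs, and the NOD/ShiLtJ control limb 4 stood highest. Of those 20 markers, Mb, Myh2, Myh7 and Tnni1 had no count in 1 to 3 of the libraries. Fewer muscle fibres in a sample and less RNA per fibre cannot be told apart in bulk tissue.

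The members were broadly expressed. Together they held between 0.528% and 1.54% of a library's counts. Their levels are compared between genes per kilobase of annotated exon. Atp5a1 and Atp5b, the alpha and catalytic beta subunits of ATP synthase, averaged 222 and 184 CPM per kb. Cox4i1, the ubiquitous form of a complex IV subunit, averaged 184 CPM per kb and Uqcrh, the hinge protein of complex III, averaged 149 CPM per kb. Low levels were found for Atp5s (2.77 CPM per kb), for Cox4i2 (5.11 CPM per kb), the lung isoform of Cox4i1, and for Atp5g2 (5.25 CPM per kb), which codes for the same ring protein, subunit c, as Atp5g1 and Atp5g3. By CPM the complexes' highest and lowest members were Ndufa4 (144 CPM) and Ndufb4 (15.4 CPM) for complex I and Sdha (226 CPM) and Sdhc (84.9 CPM) for complex II. They were Uqcrh (184 CPM) and Uqcrq (59.7 CPM) for complex III, Cox4i1 (285 CPM) and Cox4i2 (4.02 CPM) for complex IV, and Atp5b (779 CPM) and Atp5s (5.66 CPM) for complex V.

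The paired isoforms of complex IV differed in how steady they were. Per kilobase, the muscle form Cox8b ran from 1.12 to 305 (median 8.51) CPM per kb over immobilized limbs and from 0.699 to 600 (median 27.7) over control limbs. Its ubiquitous partner Cox8a ran from 138 to 301 (median 186) CPM per kb over immobilized limbs and from 134 to 247 (median 175) over control limbs. Cox6a2 ran from 2.14 to 224 (median 7.98) CPM per kb in immobilized limbs and from 3.84 to 898 (median 24.2) in control limbs, against 128 to 239 and 110 to 214 CPM per kb for Cox6a1. The muscle forms spanned a far wider range between libraries than the ubiquitous forms.

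Of the 6 paired isoforms, 5 matched a RefSeq promoter (build GRCm38.p6), and these are shown because the muscle forms moved together and apart from the ubiquitous ones in the comparisons that follow. Each is the 250 bases before the annotated start, 5′ to 3′ on the gene's strand. Cox7a1 lies at chr7:30183921-30184170, plus strand, Cox8b at chr7:140900447-140900696, minus strand, Cox6a1 at chr5:115348959-115349208, minus strand, Cox7a2 at chr9:79759854-79760103, minus strand and Cox8a at chr19:7217617-7217866, minus strand. Capitals mark CAGCTG, an E-box of the kind bound by myogenic factors, in Cox8b, and the motif of NRF1, a factor of many mitochondrial genes, and that of ETS factors (CCGGAAG, here on the other strand) in Cox6a1.
Cox7a1: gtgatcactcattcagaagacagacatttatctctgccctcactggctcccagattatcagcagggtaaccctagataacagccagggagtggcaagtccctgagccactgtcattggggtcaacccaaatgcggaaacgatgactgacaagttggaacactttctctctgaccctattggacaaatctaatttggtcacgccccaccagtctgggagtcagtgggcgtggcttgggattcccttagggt
Cox8b: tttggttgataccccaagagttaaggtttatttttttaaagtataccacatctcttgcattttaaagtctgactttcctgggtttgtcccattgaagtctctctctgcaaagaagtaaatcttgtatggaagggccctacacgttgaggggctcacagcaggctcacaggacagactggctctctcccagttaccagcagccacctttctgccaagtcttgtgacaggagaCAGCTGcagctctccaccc
Cox6a1: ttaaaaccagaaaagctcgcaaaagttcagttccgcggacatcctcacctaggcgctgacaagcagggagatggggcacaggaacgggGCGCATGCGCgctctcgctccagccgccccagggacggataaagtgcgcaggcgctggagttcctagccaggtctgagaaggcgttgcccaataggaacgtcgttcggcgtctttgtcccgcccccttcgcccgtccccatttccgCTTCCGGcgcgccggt
Cox7a2: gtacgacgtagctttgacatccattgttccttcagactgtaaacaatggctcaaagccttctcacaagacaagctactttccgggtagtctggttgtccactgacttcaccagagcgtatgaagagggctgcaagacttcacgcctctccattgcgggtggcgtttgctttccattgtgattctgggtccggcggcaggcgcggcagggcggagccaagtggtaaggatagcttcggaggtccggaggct
Cox8a: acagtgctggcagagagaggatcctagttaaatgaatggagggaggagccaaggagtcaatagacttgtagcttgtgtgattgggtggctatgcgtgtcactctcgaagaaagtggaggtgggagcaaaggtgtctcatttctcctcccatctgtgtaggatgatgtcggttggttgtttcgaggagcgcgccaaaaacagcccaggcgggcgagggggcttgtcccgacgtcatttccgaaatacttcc
The E-box CAGCTG lay 19 bases before the start of Cox8b. On both strands it was present in 13% of all 32851 RefSeq mouse promoters of this length and in 9.38% of the 64 members with a promoter. Shares of members are not of the same unit as shares of promoters. A member counts if any of its promoters has the motif, which can raise its share. The NRF1 motif, 162 bases before the start of Cox6a1, was present in 0.782% of all promoters and in 6.25% of the 64 members with a promoter, and the ETS motif, 16 bases before its start, in 6.91% of all promoters and 18.8% of those 64 members. Cox7a1, Cox7a2 and Cox8a held only the looser E-box CANNTG, which includes CAGCTG. It was present in 66.2% of all promoters and 60.9% of the 64 members. The TATA box (TATAAA), the motif of oestrogen-related receptors (AAGGTCA) and the MEF2 motif were searched too and were absent from these 5 windows. They were present in 12.4%, 4.08% and 2.92% of all promoters and in 7.81%, 7.81% and 0% of the 64 members. A match of letters is a description of these windows and not a binding site.

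The members that changed with the cast, averaged over the strains, were the muscle isoforms of complex IV. Cox6a2 had 1.46 to 152 CPM (median 5.42) in the 24 immobilized limbs and 2.61 to 610.4 CPM (median 16.4) in the 22 control limbs. Cox7a1 had 0.607 to 99.9 CPM (median 2.0) in immobilized limbs and 0.252 to 136 CPM (median 6.4) in control limbs. Cox8b had 0.404 to 110.0 CPM (median 3.06) in immobilized limbs and 0.252 to 216 CPM (median 9.96) in control limbs. The ranges of the limbs overlapped for each gene, with the NOD/ShiLtJ control limb 4 highest of all libraries. Within mice, Cox6a2 was lower in the immobilized limb of 17 of 22 mice, Cox7a1 in 17 and Cox8b in 18. With 1 term per mouse in edgeR's quasi-likelihood test and Benjamini-Hochberg adjustment over 16882 genes, Cox6a2 fell by 1.69 ± 0.41 (SE) on the log2 scale (adjusted p = 0.0244), Cox8b fell by 1.82 ± 0.47 (adjusted p = 0.0294) and Cox7a1 fell by 1.66 ± 0.43 (adjusted p = 0.03). These were the 3 members called among 80, 3.75%, and all 3 were lower, where 7.43% of all genes tested were called and 2.86% were called lower. The call for Cox6a2 held without each mouse in turn, while that for Cox7a1 was lost without 129S1/SvImJ 6, C57BL/6J 1, CAST/EiJ 3, NZO/HlLtJ 6 or PWK/PhJ 3 (adjusted p up to 0.0575) and that for Cox8b without C57BL/6J 1, C57BL/6J 6, NZO/HlLtJ 6 or PWK/PhJ 3 (up to 0.0613). With no filter on low counts, where 25117 genes were tested, none of the 3 passed (adjusted p from 0.0513 for Cox6a2 to 0.0633 for Cox7a1, edgeR), with log2 changes of −1.71 and −1.68.

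The other 77 members did not pass the test, and their log2 changes lay between −0.24 (Atp5sl) and 0.31 (Cox4i2). The median over the 80 members was −0.04 on the log2 scale, beside 0.0095 over all genes tested, and no complex other than IV had a called member. The nearest to the threshold was Sdha, the flavoprotein of complex II and a citric acid cycle enzyme, at −0.20 ± 0.06 (SE, adjusted p = 0.0634, edgeR) and lower in 19 of 22 mice. It was followed by Cox8a at 0.22 ± 0.07 (adjusted p = 0.0679) and Cox6a1 at 0.21 ± 0.07 (adjusted p = 0.0798). Next came Ndufa1, an accessory subunit of the membrane arm of complex I, at 0.22 ± 0.08 (adjusted p = 0.105), and Ndufs1, the largest iron-sulfur subunit of complex I, at −0.20 ± 0.07 (adjusted p = 0.116). Cox7a2 was at 0.05 ± 0.09 (adjusted p = 0.812). In all, 13 of 80 members had an unadjusted p under 0.05, beside 3912 of 16882 genes tested, a larger share.

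The muscle to ubiquitous ratio, which does not depend on library size, was lower in the cast limb for each pair. The percentages here are ratios of CPM and are not scaled by exon length. Annotated exons spanned 680 and 702 bases for Cox6a2 and Cox6a1, 535 and 944 for Cox7a1 and Cox7a2, and 360 and 619 for Cox8b and Cox8a. Per kilobase, the percentages of each pair would be higher, most for Cox7a1 and Cox8b. Cox6a2 stood at 1.39% to 131% of Cox6a1 (median 4.33%) in immobilized limbs and at 2.59% to 667% (median 12.4%) in control limbs. Cox7a1 stood at 0.613% to 55.4% of Cox7a2 (median 1.73%) in immobilized limbs and at 0.246% to 72.6% (median 6.21%) in control limbs. Cox8b stood at 0.351% to 87.0% of Cox8a (median 2.14%) and at 0.226% to 217% (median 9.95%). Within mice, the log2 ratio differed by −1.57 ± 0.39 for Cox6a2 to Cox6a1 (SE, n = 22 mice, lower in 18), by −1.26 ± 0.35 for Cox7a1 to Cox7a2 (lower in 17) and by −1.57 ± 0.40 for Cox8b to Cox8a (lower in 18). The 2-sided sign-flip permutation test over mice gave p = 0.00026, 0.00156 and 0.00064, or 0.00078, 0.00156 and 0.00096 adjusted over the 3 ratios.

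**Figure D1:**
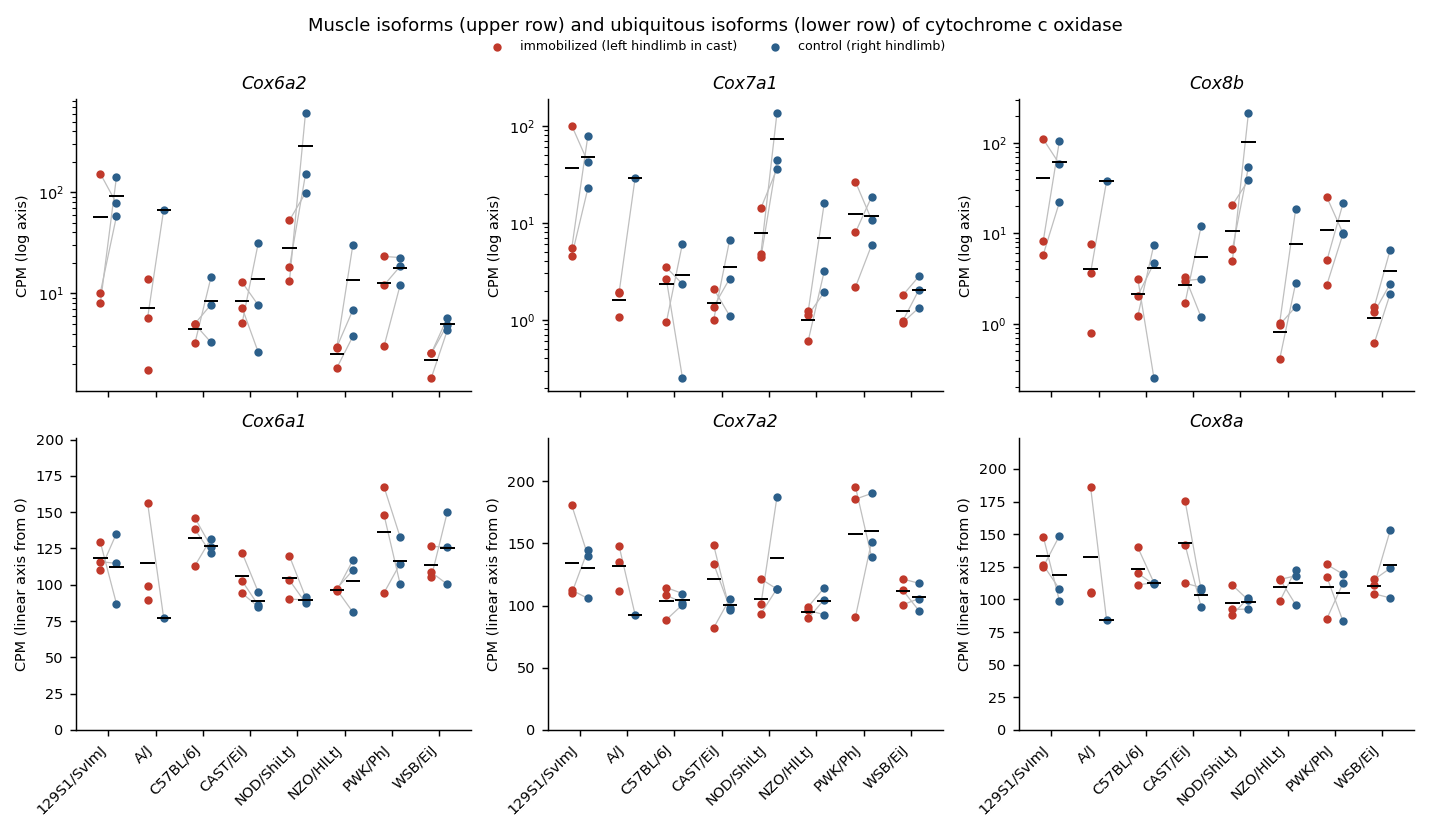
Level (CPM) of the muscle isoforms of complex IV (upper row, log axes) and the ubiquitous isoforms (lower row, linear axes from 0) in each library by strain, with immobilized limbs in red to the left of control limbs in blue; grey lines join the limbs of 1 mouse and black bars are means. The muscle isoforms reach 610.4 CPM (Cox6a2) in the NOD/ShiLtJ control limb 4, and the ubiquitous forms stay between 76.9 CPM (Cox6a1) and 195 CPM (Cox7a2).

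The cast effect on the muscle isoforms was fitted in each strain too, and no difference between strains passed the test. In NOD/ShiLtJ mice, Cox6a2 had 13.2, 52.8 and 18.1 CPM in immobilized limbs, against 610.4, 98.5 and 151 CPM in control limbs. In NZO/HlLtJ mice it had 1.82, 2.93 and 2.86 CPM in immobilized limbs, against 3.74, 6.82 and 29.8 CPM in control limbs. In WSB/EiJ mice it had 1.46, 2.54 and 2.56 CPM, against 4.32, 4.91 and 5.73 CPM. In these 3 strains the limbs did not overlap. In PWK/PhJ mice Cox6a2 had 12, 23.2 and 2.99 CPM in immobilized limbs, against 18.5, 22.6 and 12 CPM in control limbs. In CAST/EiJ mice it had 12.8, 5.11 and 7.16 CPM, against 7.64, 31.4 and 2.61 CPM, and in both strains the limbs overlapped. The 129S1/SvImJ mouse 2 went against its group, with 152 CPM in the immobilized limb and 77.6 CPM in the control limb. Tested within single strains, the fitted changes of Cox6a2 ran from −3.55 ± 1.74 in A/J, where 1 pair of limbs was left, and −3.13 ± 1.03 in NOD/ShiLtJ to −0.18 ± 1.05 in CAST/EiJ (SE), and no strain passed 0.05 for Cox6a2, Cox7a1 or Cox8b (edgeR).

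The muscle isoforms changed with the muscle markers of the same limb pair. Of the 20 skeletal muscle markers, 14 were called lower in immobilized limbs and none higher, where 2.86% of all genes were called lower. Their median change was −2.05 on the log2 scale. Across the 22 mice, the change of Cox8b followed the change of the mean log2 marker level with Pearson r = 0.860 and Spearman rho = 0.875, and that of Cox7a1 with r = 0.825 and rho = 0.806. That of Cox6a2 went with r = 0.765 and rho = 0.793. Their permutation p-values, adjusted over the 6 isoforms, were 6e-05, 6e-05 and 0.00012 for r and 6e-05, 8e-05 and 8e-05 for rho. For the ubiquitous forms, r was −0.15 for Cox6a1 (adjusted permutation p = 0.617), 0.408 for Cox7a2 (adjusted permutation p = 0.0896; rho 0.511, adjusted permutation p = 0.0247) and −0.00492 for Cox8a (adjusted permutation p = 0.983). Without the mice farthest from the median marker change, NZO/HlLtJ 4 and C57BL/6J 4, r was 0.872 for Cox8b, 0.833 for Cox7a1 and 0.871 for Cox6a2. It was −0.31, 0.444 and −0.04 for Cox6a1, Cox7a2 and Cox8a. With the marker score as a covariate in the paired fit, Cox6a2 was at −0.21 (adjusted p = 0.807, edgeR), Cox7a1 at 0.19 (adjusted p = 0.816) and Cox8b at 0.24 (adjusted p = 0.680).

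**Figure D2:**
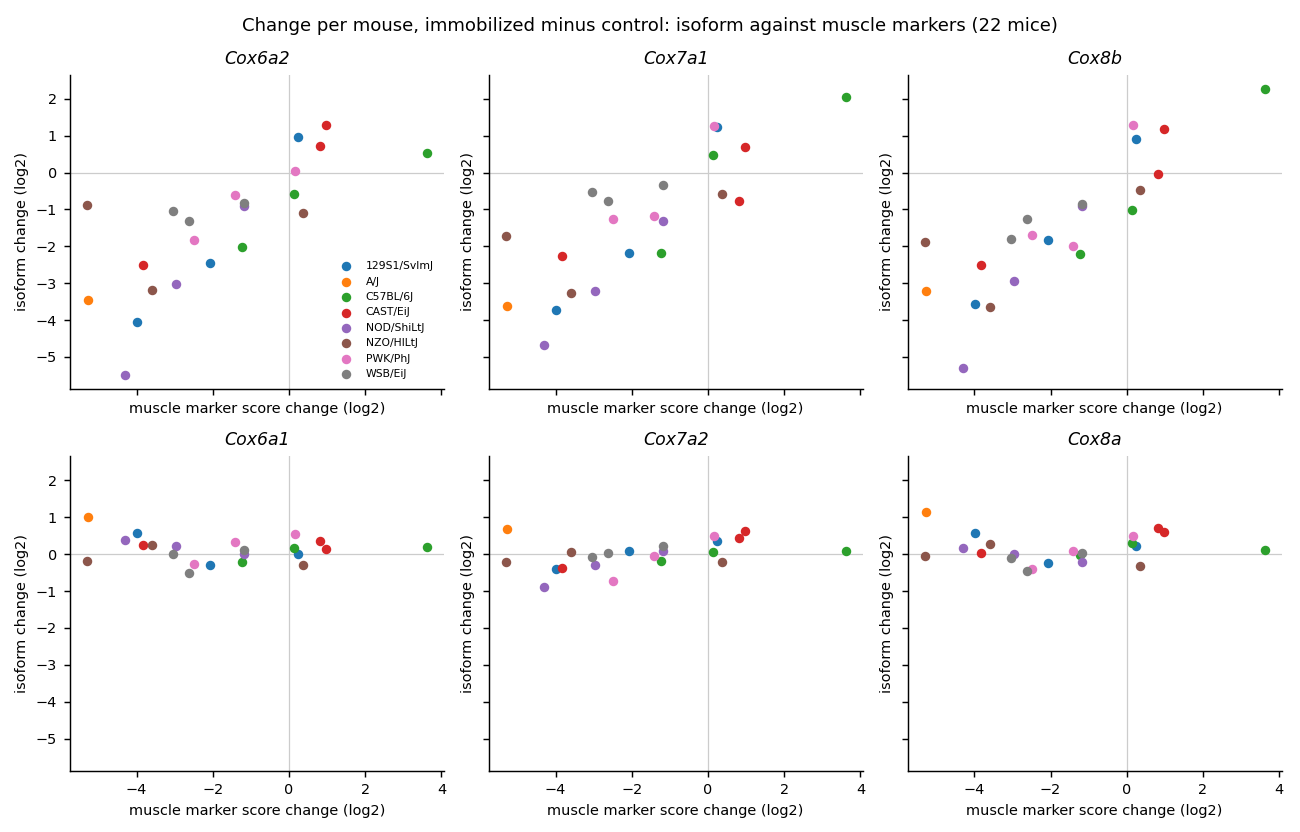
Change per mouse (log2 CPM, immobilized minus control; 22 mice, coloured by strain) of each isoform against the change of the mean log2 level of 20 skeletal muscle markers. The points of Cox6a2, Cox7a1 and Cox8b (upper row) climb together with the markers (r from 0.765 to 0.860), and those of Cox6a1, Cox7a2 and Cox8a (lower row) lie between −0.89 (Cox7a2, NOD/ShiLtJ mouse 4) and 1.15 (Cox8a, A/J mouse 1).

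Genes around the respiratory chain were read from fixed lists in the fit of the mean cast effect, where 7.43% of all genes were called. Of all genes, 4.58% were called higher and 2.86% lower. Of the 13 subunits of the mitochondrial genome, 1 passed the test, mt-Nd4l, which fell by 1.39 on the log2 scale (adjusted p = 0.0239, edgeR), and the list's median was −0.18. Of 13 citric acid cycle enzymes, 1 passed, fumarase (Fh1), which fell by 0.30 (adjusted p = 0.0239), with a median of −0.18. With 1 call each, both lists lay near the share over all genes. Of 16 regulators of mitochondrial biogenesis, 3 passed and all fell: Polrmt, the mitochondrial RNA polymerase, by 0.23 (adjusted p = 0.0237), Ppargc1a, a coactivator of mitochondrial genes, by 1.22 (adjusted p = 0.0325), and its partner Esrrg, an oestrogen-related receptor, by 1.22 (adjusted p = 0.036). None of the 43 assembly factors tested and none of 8 subunits outside the name patterns, such as Cyc1 and Cycs, passed. The osteoblast list moved the other way, with 6 of 10 genes higher, as did 5 of 8 osteoclast markers, and 4 of 8 B cell markers were lower; their part in the subunit changes was not tested.

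NOD/ShiLtJ was the strain with the most members called for the cast. In its mice 26 of 80 members were called, 32.5%, and all 26 were lower, where 8.33% of all genes were called and 2.78% were called lower. They came from every complex: 12 of 36 in complex I, 2 of 4 in complex II, 4 of 8 in complex III, 3 of 15 in complex IV and 5 of 17 in complex V. Ndufa5, an accessory subunit of complex I, had 31.7, 38.4 and 30.5 CPM in immobilized limbs, against 143, 46.2 and 62.5 CPM in control limbs. Ndufs7, which carries the last iron-sulfur cluster before ubiquinone, had 38.7, 39.2 and 43.7 CPM, against 136, 60.4 and 61.7 CPM. The limbs did not overlap for either gene, and the control limb 4 was highest. Ndufa5 fell by 1.17 ± 0.33 (SE) on the log2 scale (adjusted p = 0.0394, edgeR), Ndufb5, a membrane-arm subunit, by 1.04 ± 0.29 (adjusted p = 0.0366) and Ndufs7 by 0.98 ± 0.25 (adjusted p = 0.0248). Without mouse 4 or without mouse 6, 0 members were called, and without mouse 5 there were 38. The skeletal muscle markers summed to 2643, 9474 and 3518 CPM in the 3 immobilized limbs and to 83722.5, 18641.8 and 29426 CPM in the 3 control limbs. Other tissue markers shifted too. The osteoblast markers summed to 58740.5 to 269105 CPM in the immobilized limbs and to 17771.6 to 39350.1 CPM in the control limbs, without overlap. The part of either shift in the falls of the members was not tested. With the muscle marker score as a covariate 3 members were called, Ndufv1, Ndufa9 and Uqcrfs1, 3.75%, where 9.03% of all genes were.

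In the other strains few or no members were called. A/J, with its 1 pair, had 2 of 80 members called, both higher: Ndufb7, an accessory subunit of complex I, at 186 CPM in the immobilized limb and 73.5 CPM in the control limb (log2 change 1.34 ± 0.35, SE, adjusted p = 0.0439, edgeR) and Cox8a at 186 CPM and 83.9 CPM (1.15 ± 0.32, adjusted p = 0.0488), where 3.99% of all genes were called and 2.71% were called higher. In 129S1/SvImJ, C57BL/6J, CAST/EiJ, NZO/HlLtJ, PWK/PhJ and WSB/EiJ none of the 80 members was called, where 0%, 0.00592%, 13.9%, 0.00592%, 0.0889% and 0.00592% of all genes were called. CAST/EiJ thus had many changed genes and no called member. There, 9 of 80 members had an unadjusted p under 0.05, beside 5016 of 16882 genes tested. The difference of the cast effect among the 8 strains was itself tested with edgeR: 0 of 80 members passed, where 2.5% of all genes passed. DESeq2 called 4 members and 12.8% of all genes. With edgeR, 15 members had an unadjusted p under 0.05, beside 3479 of 16882 genes tested. The smallest p belonged to Ndufv1, the subunit that takes electrons from NADH (adjusted p = 0.127), followed by Ndufa8 (0.14), Ndufb7 (0.151), the Rieske protein Uqcrfs1 (0.176), Ndufa12 (0.181), Ndufb8 (0.191), Ndufb10 (0.198) and Cox6b1 (0.199). The falls in NOD/ShiLtJ are not shown to differ from the cast effects of the other strains.

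**Figure D3:**
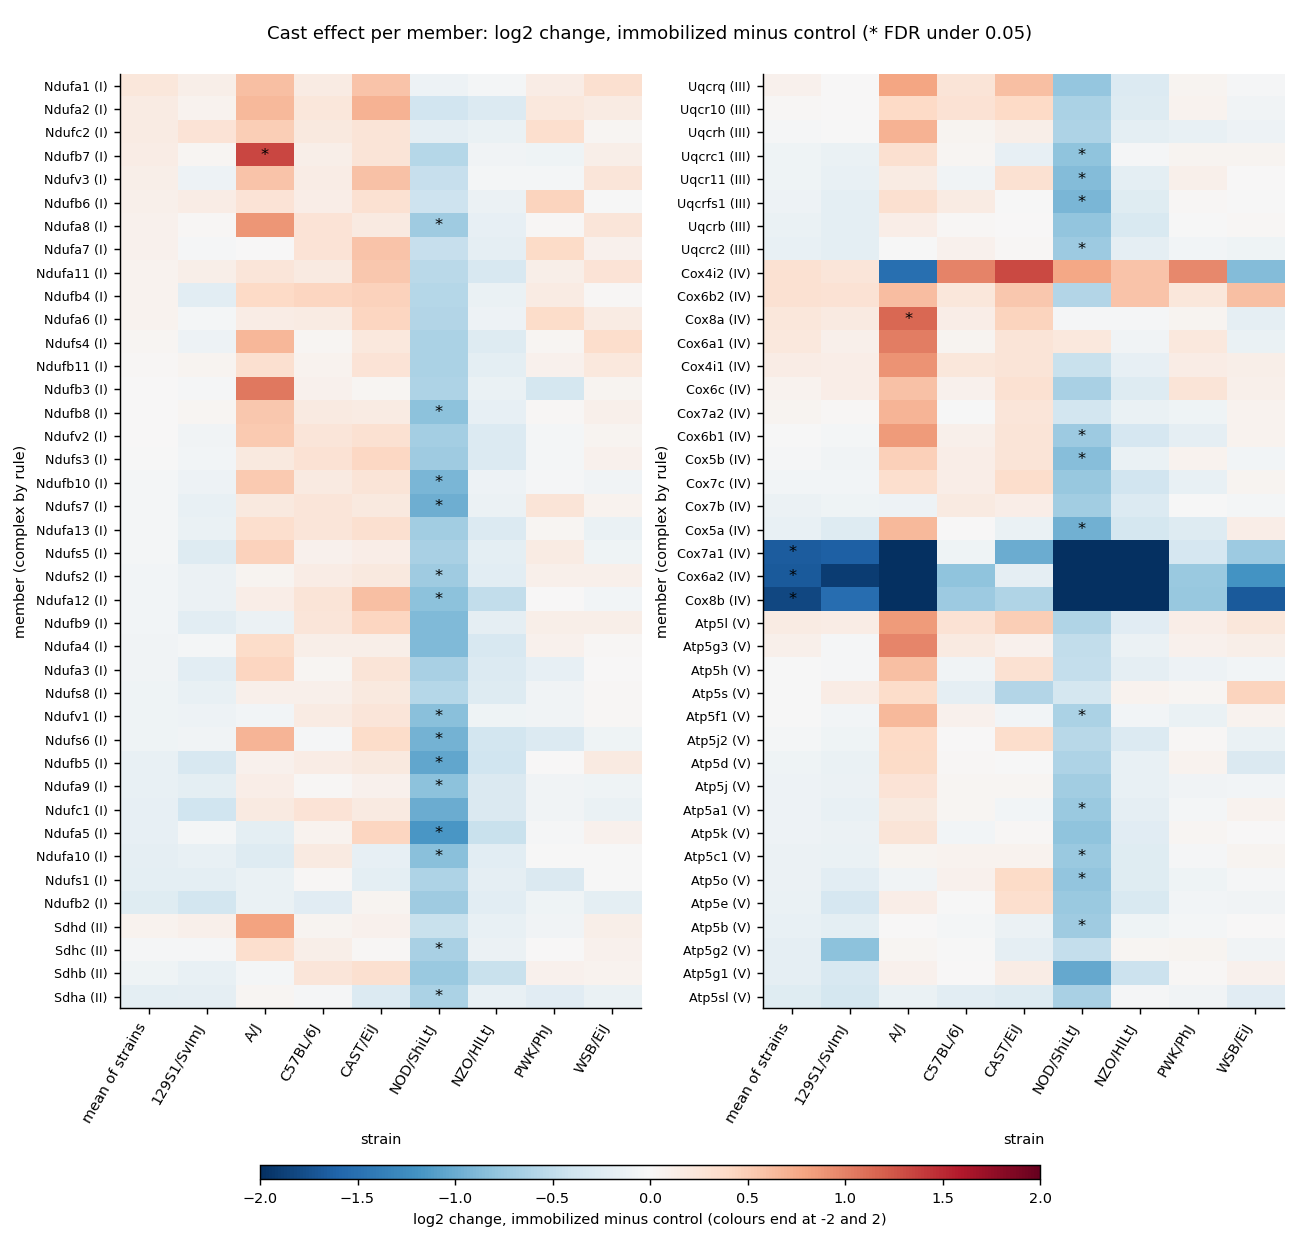
Cast effect (log2 change, immobilized minus control; colour) of the 80 members, ordered by complex, as the mean over strains and in each strain; stars mark an adjusted p under 0.05 (edgeR). The muscle isoforms stand out as dark blue in several strains, NOD/ShiLtJ is below 0 in 78 of the 80 rows (26 called) and NZO/HlLtJ in 76 (0 called), and A/J rests on 1 pair of limbs.

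Strains differed in the members in the control limbs, which were the free limbs of mice that wore a cast on the other side. No mouse without a cast was sequenced. In control limbs, 69 of 80 members, 86.2%, differed among the 8 strains, where 40.6% of all genes tested did (edgeR, 22 libraries). These included 32 of 36 members of complex I, 3 of 4 of complex II, 8 of 8 of complex III, 12 of 15 of complex IV and 14 of 17 of complex V. The smallest adjusted p-values were those of Ndufs5 (0.000122), Cox5b (0.000128), Atp5h (0.000176), Atp5g1 (0.00025), Cox6a2 (0.000307), Cox7a1 (0.000781), Cox7c (0.000974) and Atp5c1 (0.00123), the gamma subunit of ATP synthase. Strain means lay at least 8-fold apart for 4 members: Cox6a2 (287 CPM in NOD/ShiLtJ and 4.99 CPM in WSB/EiJ, 57.4-fold), Cox7a1 (72.2 and 2.05 CPM in the same strains, 35.3-fold), Cox8b (103 and 3.85 CPM, 26.7-fold) and Cox4i2 (9.93 CPM in WSB/EiJ and 1.23 CPM in NOD/ShiLtJ, 8.07-fold). Cox7a2 differed among strains (adjusted p = 0.0257, edgeR; not without the CAST/EiJ control limb 4 or the PWK/PhJ control limb 3, up to 0.0745), and Cox6a1 (0.0632) and Cox8a (0.367) did not pass. All 20 skeletal muscle markers differed among strains too, and with the marker score as a covariate 14 members passed, where 26.4% of all genes did. Those 14 were Ndufs5, Ndufa12, Ndufc2 and Ndufv3 of complex I, Uqcrc1 of complex III, Cox5b, Cox5a, Cox7c, Cox4i2, Cox7a1 and Cox8b of complex IV, and Atp5g1, Atp5h and Atp5j2 of complex V. In immobilized limbs, 19 of 80 members, 23.8%, differed among strains, where 50.3% of all genes did. After Ndufs5, Cox5b and Atp5g1 the smallest adjusted p-values were those of Cox7a1 (0.00046), Ndufa12 (0.000666), Cox8b (0.000917), Ndufc2 (0.00179) and Cox6a2 (0.00247), while Cox6a1 (0.327), Cox7a2 (0.207) and Cox8a (0.202) did not pass. Without the immobilized limb 6 of 129S1/SvImJ the count was 32, and without the immobilized limb 6 of PWK/PhJ it was 40.

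NOD/ShiLtJ control limbs had higher levels of most members. Against the mean of the other strains, 59 of 80 members were higher and none lower (73.8%; 10.8% of all genes were called, 9.15% higher), with a median of 0.64 on the log2 scale beside 0.0054 over all genes. Cox6a2, at 610.4, 98.5 and 151 CPM, against 2.61 to 141 CPM (median 12) in the 19 control libraries of the other strains, was higher by 3.94 ± 0.56 (SE, adjusted p = 0.000173, edgeR), Cox8b by 3.23 ± 0.62 (adjusted p = 0.0019) and Cox7a1 by 3.17 ± 0.54 (adjusted p = 0.000719). NOD/ShiLtJ limb 5 lay within the range of the other strains for Cox6a2. The 21 members not called included the ubiquitous isoforms Cox6a1 (−0.21, adjusted p = 0.423), Cox7a2 (0.32, adjusted p = 0.154) and Cox8a (−0.12, adjusted p = 0.715). Outside the members, 11 of 13 subunits of the mitochondrial genome were higher, among them mt-Co2 by 2.19 (adjusted p = 0.000593) and mt-Nd2 by 2.14 (adjusted p = 0.000333). Of 13 citric acid cycle enzymes, 11 were higher, such as Idh3a by 1.18 (adjusted p = 0.00015), and 1 lower, Suclg2, with a log2 change of −0.86 (adjusted p = 0.000523). Of the 16 regulators, 5 were higher: Esrrb, Perm1, Esrrg, Ppargc1a and Esrra. Beside this, 17 of the 20 skeletal muscle markers were higher, and without the control limb 4 the count of members was 5 and Cox8b was at 2.06 (adjusted p = 0.138). With the marker score as a covariate the count was 0, where the share of all genes called was lower too, at 1.39%, and the members' median was 0.42.

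After NOD/ShiLtJ, 129S1/SvImJ had the most members called higher in control limbs, and it had the most in immobilized limbs. In its control limbs 15 of 80 were higher and none lower, where 6.49% of all genes were called (5.04% higher), and in its immobilized limbs 21 were higher and none lower, where 9.9% were called (6.76% higher). Of these, 12 were called in both limbs, 80% of the control calls and 57.1% of the immobilized calls. Over all genes called higher, 68.4% of the control calls and 50.4% of the immobilized calls were shared. The 12 included the muscle isoforms, with Cox7a1 at 2.48 ± 0.54 (SE) in control and 3.85 ± 0.54 in immobilized limbs, Cox8b at 2.37 ± 0.63 and 3.74 ± 0.56, and Cox6a2 at 2.05 ± 0.56 and 3.10 ± 0.54 on the log2 scale. Atp5g1 had 126, 182 and 125 CPM in 129S1/SvImJ control limbs, against 25.2 to 117 CPM (median 88.6) in those of the other strains, with no overlap, and 227, 76.2 and 86.7 CPM in its immobilized limbs. Its muscle markers summed to 28246, 2242 and 2221 CPM in immobilized limbs and to 17958.5, 29552 and 11326 CPM in control limbs. Without the immobilized limb 2, which had the 28246 CPM, 0 members were called in immobilized limbs, and Cox7a1, Cox8b and Cox6a2 were at 0.98, 1.18 and 0.46. Without control limb 3 there was 1 in control limbs and without control limb 2 there were 4. Without the NOD/ShiLtJ control limb 4 there were 51. With the marker score as a covariate the count was 0 in either limb, where 1.31% of all genes were called in control limbs and 2.02% in immobilized limbs.

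**Figure D4:**
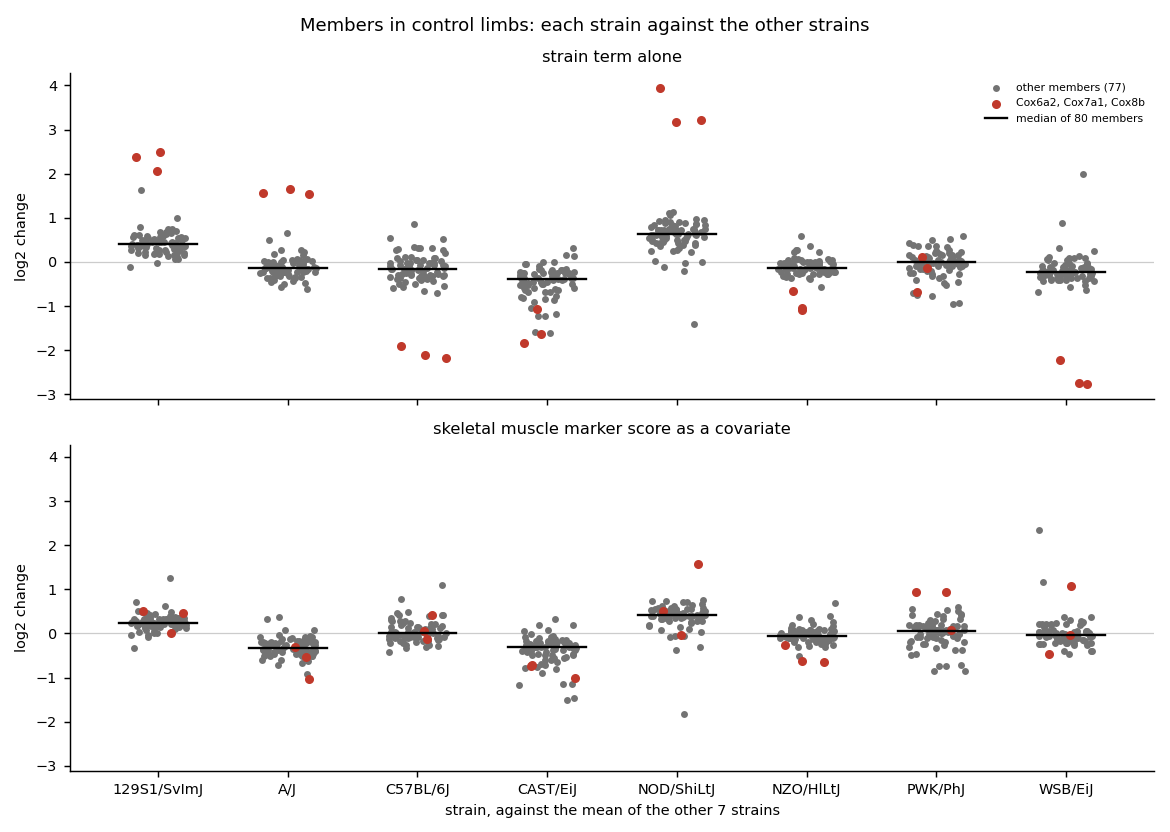
Log2 change of each of the 80 members in control limbs of each strain, set against the average of the other 7 strains (dots; the 3 muscle isoforms in red, black bars the median of members), from the fit on strain alone (top) and with the skeletal muscle marker score as a covariate (bottom). The NOD/ShiLtJ median of 0.64 and the 129S1/SvImJ median of 0.40 become 0.42 and 0.24 with the covariate, and the low dots of CAST/EiJ remain at −1.50 (Ndufs5) and −1.46 (Atp5g1).

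In CAST/EiJ a set of single subunits was lower. In its control limbs 22 of 80 members were lower and none higher, where 22.7% of all genes were called (9.57% lower), and in its immobilized limbs 6 were lower and none higher, where 18.6% were called (7.49% lower). In both limbs 5 were lower, 22.7% of the control list and 83.3% of the immobilized list: Ndufs5, Atp5g1, Cox5b, Cox7c and Atp5h. Over all genes called lower these shares were 37.2% and 49.7%, and the 7.5% of members called lower in immobilized limbs lay at the share over all genes. Ndufs5, an accessory subunit of complex I, had 15.8, 8.1 and 9.7 CPM in CAST/EiJ immobilized limbs, against 10.6 to 53.9 CPM (median 31.1) in the other strains, and 9.02, 11.7 and 9.02 CPM in CAST/EiJ control limbs, against 9.4 to 47.5 CPM (median 33.2). Atp5g1, a gene of subunit c of the ATP synthase rotor, had 45.7, 22.9 and 35.2 CPM, against 35.2 to 227 CPM (median 80.6), in immobilized limbs and 31.1, 35.4 and 25.2 CPM, against 55.5 to 182 CPM (median 91.9), in control limbs. Control limbs of CAST/EiJ lay below every other control library for Atp5g1 and, for Ndufs5, below all but the PWK/PhJ limb 4, while its immobilized limbs overlapped with those of PWK/PhJ, 129S1/SvImJ and NOD/ShiLtJ for Ndufs5 and with those of NOD/ShiLtJ for Atp5g1. Cox5b, the zinc-binding subunit of complex IV, had 39.6, 43.0 and 37.7 CPM in CAST/EiJ control limbs, against 43.7 to 221 CPM (median 96.3), with no overlap.

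In CAST/EiJ control limbs Ndufs5 was lower than the mean of the other strains, with a log2 change of −1.61 ± 0.23 (SE, adjusted p = 6.14e-05, edgeR), and Atp5g1 with −1.58 ± 0.21 (adjusted p = 2.96e-05). The log2 change was −1.23 ± 0.20 for Cox5b (adjusted p = 0.000227), −1.22 ± 0.20 for Cox7c, a small structural subunit of complex IV (adjusted p = 0.000283), and for Atp5h, subunit d of the peripheral stalk, −1.18 ± 0.14 (adjusted p = 1.1e-05). In immobilized limbs the log2 changes were −1.32 ± 0.24 for Ndufs5 (adjusted p = 0.000509), −1.16 ± 0.24 for Atp5g1 (adjusted p = 0.00171) and −0.84 ± 0.16 for Cox5b (adjusted p = 0.000906). They were −0.68 ± 0.19 for Cox7c (adjusted p = 0.014) and −0.75 ± 0.15 for Atp5h (adjusted p = 0.00109). The muscle isoforms of CAST/EiJ did not pass: in control limbs they were at −1.84 ± 0.76 (Cox7a1, adjusted p = 0.0869), −1.62 ± 0.85 (Cox8b, adjusted p = 0.174) and −1.07 ± 0.70 (Cox6a2, adjusted p = 0.275, edgeR), with larger errors than the 5 called genes. In immobilized limbs they were at −1.41 ± 0.88, −0.75 ± 0.84 and −0.03 ± 0.75. The 2 limbs of a mouse are not independent libraries. With the marker score as a covariate all 5 stayed below 0.05 in both limbs, with log2 changes from −1.50 (Ndufs5) to −1.14 (Cox7c) in control limbs. Ndufs5, Atp5g1 and Cox5b also passed without any single library in either limb. The 20 muscle markers of CAST/EiJ summed to 2385, 673 and 800.2 CPM in immobilized limbs and to 897, 8360.3 and 364 CPM in control limbs, within the range of the other strains. The full list was less steady: without CAST/EiJ control limb 2 or 4 there were 6 lower members in control limbs, and without limb 3 there were 14.

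Single subunits differed in other strains too. Ndufa12, an accessory subunit of complex I, had 30.9, 41.3 and 36.0 CPM in C57BL/6J immobilized limbs, against 10.9 to 33.6 CPM (median 14.3) in the other strains, and 30.2, 29.7 and 29.9 CPM in C57BL/6J control limbs, against 9.72 to 38.1 CPM (median 17.1). Among the other strains only the immobilized limb 2 of 129S1/SvImJ and the control limb 4 of NOD/ShiLtJ reached the C57BL/6J values. Its log2 change against the other strains was 1.27 ± 0.18 in immobilized limbs (SE, adjusted p = 6.89e-05, edgeR) and 0.87 ± 0.19 in control limbs (adjusted p = 0.00957). The call in control limbs was lost without the C57BL/6J control limb 4 or 6 (adjusted p up to 0.0601). C57BL/6J had 3 of 80 members called in immobilized limbs, all higher (7.75% of all genes, 5.31% higher), the others being Ndufs5 (0.70 ± 0.20) and Cox5b (0.55 ± 0.14), and 2 in control limbs (8.83% of all genes, 5.83% higher and 3% lower), the other being Cox7b, a small subunit of complex IV, at −0.69 ± 0.21 (adjusted p = 0.0495, edgeR). The Cox7b call was lost in 15 of 22 fits that left out 1 library (adjusted p up to 0.181). In immobilized limbs the Ndufs5 call was lost without the C57BL/6J limb 1, 4 or 6 or the NOD/ShiLtJ limb 6 (up to 0.224) and the Cox5b call without the C57BL/6J limb 4 or 6 (up to 0.146).

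Ndufs5 was high in WSB/EiJ, at 38.0, 41.7 and 49.3 CPM in immobilized limbs, against 8.1 to 53.9 CPM (median 24.8) in the other strains, and at 47.4, 41.3 and 47.5 CPM in control limbs, against 9.02 to 42.1 CPM (median 25.2). The level was not particular to WSB/EiJ: immobilized limbs had 34.7 to 53.9 CPM in A/J and 31.1 to 42.8 CPM in C57BL/6J. In WSB/EiJ the log2 change was 0.92 ± 0.20 in immobilized limbs (SE, adjusted p = 0.00407, edgeR) and 0.88 ± 0.18 in control limbs (adjusted p = 0.00666). Without the WSB/EiJ immobilized limb 5 the adjusted p in immobilized limbs was 0.0557. WSB/EiJ had 1 of 80 members called in immobilized limbs (8.05% of all genes, 5.21% higher) and 3 in control limbs (6.54%, 4.2% higher and 2.33% lower), where Cox4i2 was higher by 1.98 ± 0.46 (adjusted p = 0.0132). Cox4i2 stood at 4.19, 7.96 and 17.6 CPM against 0.733 to 14.1 CPM (median 1.86) in the other strains, and Ndufs4, an iron-sulfur module subunit of complex I, stood at −0.63 ± 0.18 (adjusted p = 0.0474). The Ndufs4 call was lost in 16 of 22 fits that left out 1 library (adjusted p up to 0.191), and also with RLE scaling and with no filter on low counts. Without the WSB/EiJ control limb 5, which had the 17.6 CPM, Cox4i2 was at 1.28 and 1 member was called.

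PWK/PhJ had 6 of 80 members called in each limb, 5 higher and 1 lower in immobilized limbs (18.7% of all genes, 10.7% higher and 8.02% lower) and 3 higher and 3 lower in control limbs (16.7%, 10.1% higher and 6.55% lower). Ndufc2, a membrane-arm subunit of complex I, had 75.4, 95.2 and 42.3 CPM in immobilized limbs, against 28.2 to 53.6 CPM (median 39.8) in the other strains, and 68.0, 47.4 and 47.8 CPM in control limbs, against 27.2 to 57 CPM (median 35.3). Its log2 change was 0.89 ± 0.14 in immobilized limbs (SE, adjusted p = 0.000136, edgeR) and 0.59 ± 0.14 in control limbs (adjusted p = 0.0052), and Cox5b was lower in both limbs, at −0.62 ± 0.16 and −0.78 ± 0.19. Atp5g1 was higher in immobilized limbs, at 0.70 ± 0.21 (adjusted p = 0.021), and not without PWK/PhJ limb 3 or 4 (adjusted p up to 0.182). Ndufs5 was lower in control limbs, at −0.92 ± 0.22 (adjusted p = 0.00606). In control limbs, Ndufc2 was not called without PWK/PhJ limb 3 (adjusted p = 0.0997), nor Ndufs5 and Cox5b without limb 4 (adjusted p = 0.0629 and 0.0713). In immobilized limbs, Cox7a1 was called at 2.02 ± 0.61 (adjusted p = 0.0255, edgeR). Without the PWK/PhJ immobilized limb 4 it was at 0.73 and 2 members were called, and without limb 6 there were 16.

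The remaining contrasts added few calls. NOD/ShiLtJ immobilized limbs had 4 of 80 members called, 1 higher and 3 lower (19.6% of all genes, 12.7% higher and 6.93% lower), with Cox6a2 at 1.94 ± 0.59 (SE, adjusted p = 0.0274, edgeR), Atp5g1 at −1.09 ± 0.24 (adjusted p = 0.00458) and Ndufs5 at −0.76 ± 0.23 (adjusted p = 0.0252). A/J immobilized limbs had 3 (13.7%, 9.22% higher and 4.46% lower), with Ndufs5 higher by 0.95 ± 0.20 (adjusted p = 0.00289), Ndufv3 higher by 0.44 ± 0.13 (adjusted p = 0.0291) and Cox4i2 at −1.44 ± 0.42 (adjusted p = 0.0252). NZO/HlLtJ immobilized limbs had 1 (6.81%, 2.05% lower), Ndufb8 at −0.72 ± 0.18 (adjusted p = 0.017). Cox6a2 in NOD/ShiLtJ was at 1.11 without immobilized limb 5 and was not called without limb 5 or 6 (adjusted p up to 0.325). The calls of Ndufs5 in NOD/ShiLtJ, Cox4i2 in A/J and Ndufb8 in NZO/HlLtJ were lost without any 1 of the strain's 3 immobilized limbs (up to 0.135, 0.118 and 0.134), and that of Ndufv3 in A/J without limb 1 or 5 (up to 0.221). Control limbs of A/J (1.69%) and NZO/HlLtJ (4.61%) had 0. Of 80 members, 3 and 4 had an unadjusted p under 0.05 there, beside 2381 and 2724 of 16493 genes tested. Ndufs5, Cox5b and Atp5g1 had the smallest p-values of the members for strain differences in immobilized limbs (adjusted p = 4.34e-05, 0.000118 and 0.000245) and were 3 of the 4 smallest in control limbs, with Atp5h.

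**Figure D5:**
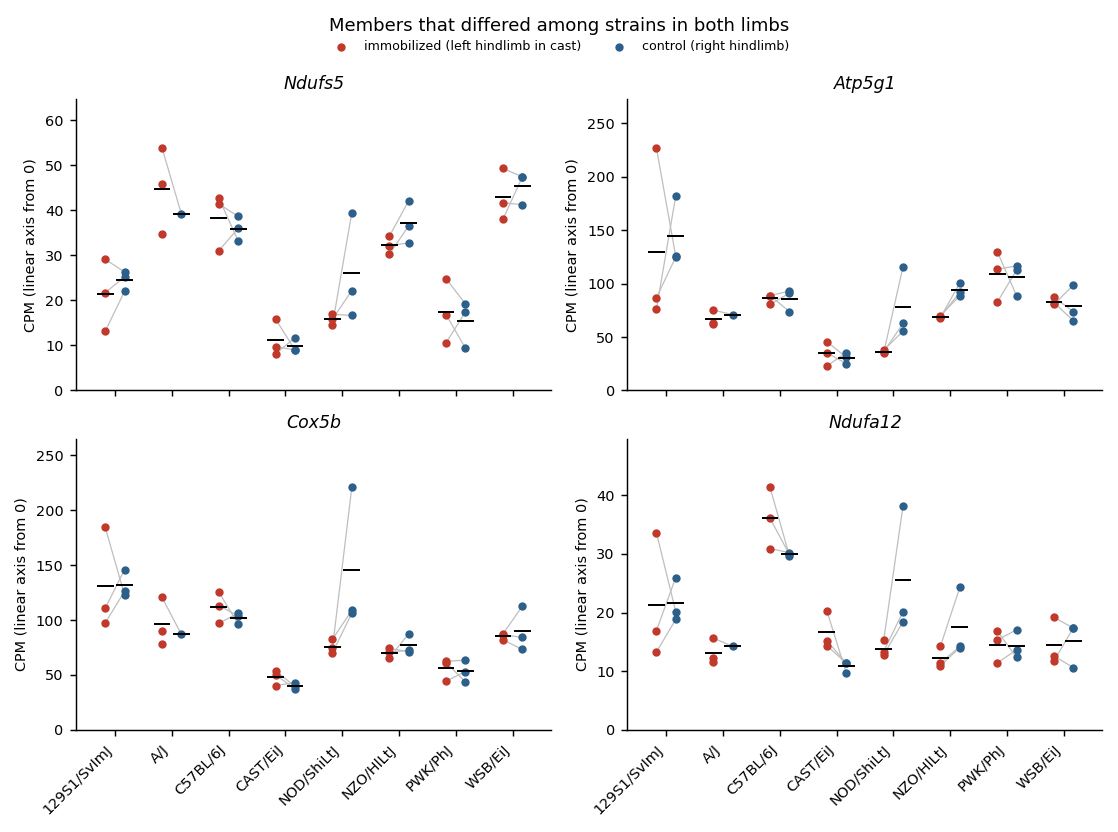
Level (CPM, linear axes from 0) of Ndufs5, Atp5g1, Cox5b and Ndufa12 in each library by strain, with immobilized limbs in red to the left of control limbs in blue; grey lines join the limbs of 1 mouse and black bars are means. CAST/EiJ is low in the first 3 panels (Atp5g1 at 22.9 to 45.7 CPM in both limbs), and C57BL/6J is high for Ndufa12. WSB/EiJ is high for Ndufs5, as are A/J immobilized limbs (34.7 to 53.9 CPM). PWK/PhJ control limbs (9.40 to 19.2 CPM) and NOD/ShiLtJ immobilized limbs (14.6 to 16.9 CPM) are low for Ndufs5 too.

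Reads of all strains were placed on mm10, the C57BL/6J genome, per the submitters' processing notes, so a strain's lower count for a gene cannot be told apart from reads lost to sequence differences. The count table also names processed copies of member genes (Atp5k-ps2, Atp5l-ps1, Atp5l-ps2, Atp5l2-ps, Uqcrh-ps1 and Uqcrh-ps2), and how reads that fit several copies were counted is not given in the sources used here.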

How the data were processed

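Raw counts per gene were deposited by the authors for 48 libraries of tibial metaphysis, made with featureCounts on mm10 per the submitters' processing notes, which list DESeq2 too. Their versions, strand setting and treatment of reads with several matches are not stated there. The 2 A/J control libraries with 2335 and 50 counts were left out.

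Counts were scaled by TMM and tested with edgeR 4.0.16 (R 4.3.3, quasi-likelihood F test, robust, filterByExpr, Benjamini-Hochberg over all genes tested, threshold 0.05). Cast effects used 22 mice with 1 term per mouse and a cast effect per strain, since the series' design gives both limbs of a mouse. The limbs' deviations correlated with a median r of 0.093 over 21 mice (range −0.256 to 0.548). Strain contrasts were fitted within each limb. Isoform ratios used log2(CPM + 0.5) and a sign-flip permutation test with 100000 resamples. Simulated 4-fold changes were recovered for 100% of genes in the mean cast effect and 92% in the NOD/ShiLtJ control contrast. At 2-fold these shares were 100% and 70%, and at 1.5-fold they were 84% and 20%. False calls numbered 15 in the mean cast effect and 7 in the NOD/ShiLtJ control contrast. The simulation changed 200 genes, 50 per fold, none of them with low expected counts. It gave each gene 1 mean over all libraries, and for the cast effect the same fold in every strain. Differences between mice, strains and tissue content were left out. These shares therefore need not hold for genes that vary with tissue content, such as the muscle isoforms.

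The text names the 6 paired isoforms, the 8 members with the smallest p in each comparison over strains, the 3 with the largest absolute log2 change among those called in each strain contrast and each strain's cast effect, the highest and lowest member of each complex by mean CPM, and members whose strain means in control limbs lie at least 8-fold apart. Members called in both limbs of a strain, and single calls beside them, were named after their values were seen. Members and gene lists were chosen with earlier results of these data known. DESeq2 1.42.0, other scaling, no filter, no mouse term, a skeletal muscle score as covariate and left-out libraries were tried as alternatives. Coordinates are from GENCODE M21 or RefSeq GRCm38.p6.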

Additional observations from a re-analysis of the deposited data

Results flagged for a closer look

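Only the members named for the mean cast effect or for its differences among strains were searched for opposite signs between strains. They include the 8 members with the smallest p for differences among strains, so they were picked in part for differing. The cast effect of 5 of them had the opposite sign in every mouse of one strain and every mouse of NOD/ShiLtJ (3 mice each, log2(CPM + 0.5), immobilized minus control). How many of the 80 members or of all genes meet this rule was not counted, so the 5 have no background to stand beside. Opposite signs were not limited to these 5. The fitted cast effect was below 0 for 78 of 80 members in NOD/ShiLtJ (26 called). It was above 0 for 65 in C57BL/6J (0 called), 64 in CAST/EiJ (0 called) and 65 in A/J (1 pair). The share of all genes on each side of 0 was not counted. Their median change was −0.031 in NOD/ShiLtJ, 0.011 in C57BL/6J and −0.0075 in CAST/EiJ. Members of a library vary together, so these counts are not separate observations. Ndufv1 averaged 0.16 in C57BL/6J and −0.83 in NOD/ShiLtJ, a difference of 0.991. Ndufa8 averaged 0.28 in C57BL/6J and −0.70 in NOD/ShiLtJ, a difference of 0.981. The difference was 1.07 for Uqcrfs1 (0.17 in C57BL/6J and −0.90 in NOD/ShiLtJ) and 0.9999 for Ndufb8 (0.19 and −0.81). Ndufa12 averaged 0.58 in CAST/EiJ and −0.79 in NOD/ShiLtJ, a difference of 1.38. These differences between pairs of strains were not tested, and the test over all strains gave adjusted p-values from 0.127 (Ndufv1) to 0.191 (Ndufb8) with edgeR.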

How the results depend on the processing

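The fall of the 3 muscle isoforms was also called with RLE scaling and with the near-empty libraries kept. Percentages in this section are the shares of all genes called in the same fit. Members called for the mean cast effect numbered 5 without the replicate block (6.26%) and 5 with DESeq2 (10.8%). They numbered 0 with no filter on low counts (2.91%) and 6, all higher, with the muscle score (5.39%). With the score, Cox8b (0.24), Cox7a1 (0.19) and Ndufs1 (0.0070) turned positive. Cox7a2 ran from −0.037 without A/J mouse 1 to 0.089 without CAST/EiJ mouse 3, and its correlation with the markers was 0.62 without the A/J mouse. Within A/J the count was 0 without the replicate block (0.0769%), with the score (0.0415%) or with no filter (1.2%), and 5 with DESeq2 (10.5%). Within NOD/ShiLtJ it was 41 with DESeq2 (11.3%) and 3 with the score (9.03%), and within CAST/EiJ 10 with the score (21.1%). DESeq2 called 4 members for differences in the cast effect (12.8%) and 37 for strain differences in immobilized limbs (62%). The score left 14 in control limbs (26.4%).

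With the score, strain contrasts gave 0 for 129S1/SvImJ in control (1.31%) and immobilized limbs (2.02%). In control limbs they gave 12 for CAST/EiJ (15.8%), 0 for NOD/ShiLtJ (1.39%, Cox8b at −0.037), 1 for WSB/EiJ (3.34%) and 1 for C57BL/6J (2.02%). In immobilized limbs they gave 9 for NOD/ShiLtJ (11.5%), 0 for NZO/HlLtJ (3.97%) and 2 for WSB/EiJ (3.39%). DESeq2 gave 7 (C57BL/6J control, 15.1%), 1 (NZO/HlLtJ control, 6.44%), 5 (NZO/HlLtJ immobilized, 10.4%), 9 (WSB/EiJ control, 9.94%) and 4 (WSB/EiJ immobilized, 10.8%). No filter gave 9 (129S1/SvImJ control, 3.66%) and 1 (C57BL/6J control, 4.57%). For C57BL/6J control limbs, RLE gave 1 (8.64%) and a fit of 16 groups 1 (13%). The fit of 16 groups gave 2 for NZO/HlLtJ immobilized limbs (6.32%). Without A/J the counts were 5 (C57BL/6J immobilized, 12.2%), 1 (NZO/HlLtJ control, 5.09%) and 2 (NZO/HlLtJ immobilized, 8.06%). The cause was not tested.

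With 1 mouse or library left out, counts ran from 1 to 6 for the mean cast effect (1 without C57BL/6J 1, NZO/HlLtJ 6 or PWK/PhJ 3; 6 without 129S1/SvImJ 2, A/J 1 or PWK/PhJ 6; 5 without NOD/ShiLtJ 5), 0 to 38 within NOD/ShiLtJ, 0 to 0 within the other strains except A/J (1 pair, none left out), 0 to 1 for differences in the cast effect, 54 to 72 for strain differences in control limbs and 16 to 40 in immobilized limbs. For control and immobilized limbs they ran from 1 to 51 and 0 to 33 (129S1/SvImJ), 0 to 0 and 1 to 4 (A/J), 0 to 6 and 1 to 5 (C57BL/6J), 6 to 33 and 5 to 8 (CAST/EiJ), 5 to 64 and 1 to 6 (NOD/ShiLtJ), 0 to 2 and 0 to 5 (NZO/HlLtJ), 2 to 11 and 2 to 16 (PWK/PhJ), and 1 to 8 and 0 to 2 (WSB/EiJ). Ratio changes ran from −1.70 to −1.36 (Cox6a2), −1.41 to −1.12 (Cox7a1) and −1.75 to −1.38 (Cox8b), and correlations from 0.744 to 0.847 (Cox6a2), 0.784 to 0.861 (Cox7a1), 0.819 to 0.899 (Cox8b), −0.23 to 0.065 (Cox6a1), 0.337 to 0.624 (Cox7a2) and −0.10 to 0.257 (Cox8a).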
